A study of Mus musculus with 12 samples.

Results

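The genes described here carry the names of proteins of the cytosolic ribosome, and nearly all are listed as coding for them. They were chosen by symbol: names that begin with Rpl or Rps, go on with a number and end in at most a letter a, x or l and a digit, with Rplp0, Rplp1, Rplp2 and Rpsa added and with names of the form Rpl-ps (pseudogenes) and the Rps6k kinases left out. This gave 88 of the 45792 genes in the files, 51 of the large (60S) and 37 of the small (40S) subunit. Of these, 80 had enough counts for a test, among 15706 genes tested. The 8 that did not were Rpl3l, Rpl39l, Rpl10l, Rps12, Rps3a2, Rps3a3, Rps12l1 and Rps12l2, which had at most 7 counts in any library. GENCODE lists Rps3a2, Rps3a3, Rps12l1 and Rps12l2 as processed pseudogenes, and the tested Rps4l as a transcribed one. The symbol rule kept them, and they are counted here among the 40S genes. The lowest count of any tested member in any library was 36, for Rps4l, so that no member was tested only because of the group in which it is high.

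A ribosome translates mRNA with its small subunit, which holds the decoding site, and joins amino acids with its large subunit, which holds the peptidyl transferase centre. Most of its proteins are needed in 1 copy per particle, and their genes are transcribed at high and similar rates in growing cells, including the stem and progenitor cells of the forebrain. Their mRNAs begin with a tract of pyrimidines (the TOP motif), through which mTOR and Larp1 regulate how much of them is translated. A few members have paralogues of their own, and most have processed pseudogenes elsewhere in the genome that resemble the mature mRNA closely.

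The study asked how loss of Ncf1, a cytosolic subunit of the NADPH oxidase Nox2, and added Igfbp2, a secreted binding protein of insulin-like growth factors, act on neural stem cells (NSCs). Ribosomal-RNA-depleted total RNA of 12 cultures of neonatal forebrain NSCs was sequenced, 4 in each of 3 groups: WT (replicates 9 to 12), Ncf1-/- with vehicle (replicates 1 to 4) and Ncf1-/- with Igfbp2 (replicates 5 to 8). By the study's methods each pup gave its own second-passage culture on a C57BL/6J background, vehicle or recombinant mouse Igfbp2 was added to Ncf1-/- cultures 48 h after plating, and RNA was taken 48 h later. The labels give 100 ng per ml of Igfbp2 and the methods a lower concentration. No WT culture received Igfbp2, the deletion is in all cells, and Igfbp2-treated cultures carry the same deletion as their controls. The libraries held 18201622 to 34086554 counts.

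The coding sequences of Rps27 and its paralogue Rps27l are shown first, because Rps27l had the largest rise of all members and because a read within the coding sequence of one gene can be told from a read of the other only at bases that differ. The capitals mark the 61 of 255 positions at which they differ (76.1% identical), 53 of them at the last base of a codon. Both are the principal isoforms in the GENCODE M21 annotation of GRCm38.
Rps27: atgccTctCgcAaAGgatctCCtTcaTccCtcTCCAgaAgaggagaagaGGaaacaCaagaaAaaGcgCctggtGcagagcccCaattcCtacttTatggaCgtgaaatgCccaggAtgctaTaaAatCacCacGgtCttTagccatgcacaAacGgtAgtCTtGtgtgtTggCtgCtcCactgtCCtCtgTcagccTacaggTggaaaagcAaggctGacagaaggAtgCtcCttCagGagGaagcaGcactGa
Rps27l: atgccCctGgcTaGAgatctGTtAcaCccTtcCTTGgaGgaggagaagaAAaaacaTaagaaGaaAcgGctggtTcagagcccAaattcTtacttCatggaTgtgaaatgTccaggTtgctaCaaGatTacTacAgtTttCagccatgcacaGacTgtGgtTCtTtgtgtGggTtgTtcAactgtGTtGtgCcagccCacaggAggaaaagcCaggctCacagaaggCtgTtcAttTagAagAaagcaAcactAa

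The next sequence bears on a gene listed at 0. It is the first 120 coding bases of Rps12, and the processed pseudogene Rps12-ps3 holds the same letters over all 399 coding bases of Rps12. Counts in the 2 entries can therefore not be assigned by coding sequence.
Rps12 and Rps12-ps3: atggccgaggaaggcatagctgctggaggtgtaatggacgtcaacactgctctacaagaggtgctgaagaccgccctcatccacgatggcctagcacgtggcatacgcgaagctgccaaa

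Transcription starts of 4 members with a run of pyrimidines are shown as 30-base windows from RefSeq (GRCm38.p6), each with 10 bases before the annotated start and 20 from it on, and the capitals mark the uninterrupted run of C and T that begins with C at the start. Rps6 (chr4:86857348-86857377, minus strand) is the 40S protein that the S6 kinases phosphorylate, Rps27 (chr3:90213629-90213658, minus strand) is the parent of Rps27l, Rplp2 (chr7:141447641-141447670, plus strand) is part of the P stalk, and Rpl35a (chr16:33056472-33056501, plus strand; the one of its 3 annotated starts with such a run) was the only member called between the Igfbp2-treated and vehicle-treated groups. The last 2 windows, of the paralogues Rps27l (chr9:66946076-66946105, plus strand) and Rpl22l1 (chr3:28805498-28805527, plus strand), hold no run at the annotated start itself and so no capitals. In each of these 2 windows a C followed by at least 4 bases of C or T begins within 5 bases downstream of that start. The other annotated start of Rps27l and those of Rpl22, the parent of Rpl22l1, also hold no run at the start itself. Most starts of members hold none there, as counted below.
Rps6: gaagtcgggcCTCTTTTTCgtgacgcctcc
Rps27: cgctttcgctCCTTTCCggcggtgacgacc
Rplp2: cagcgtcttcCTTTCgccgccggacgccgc
Rpl35a: gcttgccttcCTCTTTCCgccatcttggcg
Rps27l: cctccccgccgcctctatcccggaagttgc
Rpl22l1: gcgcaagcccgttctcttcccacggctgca

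Among the members, 63 were matched by symbol to 75 annotated starts. A C followed by at least 4 bases that are each C or T, read on the transcribed strand only, stood at 13 of the 75 starts (17.3%) and at 823 of the 32851 starts of all genes (2.51%). With the run allowed to begin up to 5 bases upstream or downstream of the annotated start, the shares were 41.3% and 18.3%. The 13 members were Rpl14, Rpl15, Rpl28, Rpl35, Rpl35a, Rpl38, Rplp2, Rps6, Rps10, Rps15a, Rps18, Rps21 and Rps27. These matches describe the annotated windows, and an annotated start may lie some bases from the one used in these cells.

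Some libraries stood apart from their labels or their group, and results that rest on them are given with and without them. Ncf1 itself had 2 to 7 counts in WT, 2 to 4 in vehicle-treated and 1 in each Igfbp2-treated Ncf1-/- library, too few to check the genotype. The methods describe paired Ncf1-/- cultures from the same animals, yet 4 Y-linked genes summed to 105 to 116 CPM (counts scaled to library size with TMM factors) in the vehicle-treated and to 7.79 to 9.15 CPM in the Igfbp2-treated libraries, so the comparison between these groups is also one between cultures that differed in Y-linked expression. Y-linked genes summed to 107 to 118 CPM in WT replicates 9 to 11 and to 6.47 CPM in replicate 12, which a second sample sheet among the study's supplementary files lists under another treatment. Mag, a defining oligodendrocyte gene, had 3 to 14 counts in Ncf1-/- libraries and 1191 to 5660.0 in WT libraries. Over 12 oligodendrocyte markers the summed level was 3306 to 11695 CPM in WT. It was 2193 to 2360 CPM in vehicle-treated and 2239 to 2329 CPM in Igfbp2-treated libraries. In vehicle-treated Ncf1-/- libraries 10 of the 12 were called lower than in WT and 2 were called higher. Over 8 neural stem cell markers the summed level was 2456 to 7969.6, 7642 to 8231 and 7456 to 7999 CPM. Of these 8, 2 were called higher and 5 lower. All 9 proliferation markers were called higher in Ncf1-/- NSCs. WT replicate 11 stood apart from its group in both sums. Its stem cell markers were at 7969.6 CPM, against 2456 to 3741 CPM in WT replicates 9, 10 and 12. Its oligodendrocyte markers were at 3306 CPM, against 7027 to 11695 CPM in those replicates. Astrocyte markers summed to 7359 to 13139 CPM in WT, 3246 to 3800 CPM in vehicle-treated and 3540.3 to 4729 CPM in Igfbp2-treated libraries, with 7 of 8 called lower in vehicle-treated NSCs against WT, and neuron markers to 598 to 771, 483 to 547 and 432 to 460 CPM, with 6 of 8 lower. Of 6 tested mesenchymal markers 5 were called higher and 1 lower against WT, and 4 were higher and 0 lower after Igfbp2 against vehicle, with sums of 12.7 to 25.3, 14.6 to 17.9 and 36.8 to 47.6 CPM. Microglial markers stayed at or under 2.12 CPM in sum. In bulk RNA, fewer cells of a type and less RNA per cell cannot be told apart, and the part of these differences in the results on ribosomal protein genes was not tested.

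The 88 genes held a larger share of the counts in Ncf1-/- than in WT libraries. They took 2.65, 2.18, 2.595 and 2.804% of all counts in WT replicates 9 to 12, 3.85, 3.73, 3.97 and 3.42% in vehicle-treated Ncf1-/- replicates 1 to 4 and 4.06, 3.34, 3.397 and 3.63% in Igfbp2-treated Ncf1-/- replicates 5 to 8. Every Ncf1-/- library of either treatment lay above every WT library, while the vehicle-treated and Igfbp2-treated groups overlapped. The means were 2.56 ± 0.267% in WT, 3.74 ± 0.238% in vehicle-treated and 3.61 ± 0.324% in Igfbp2-treated Ncf1-/- libraries (SD, n = 4 each), a ratio to WT of 1.46 and 1.41.

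The share of TPM (counts divided by transcript length and scaled to the same total in each library) gave another order. It was 3.29, 2.91, 3.85 and 4.08% in WT, 4.53, 4.56, 4.88 and 4.95% in vehicle-treated and 3.89, 4.02, 4.15 and 3.401% in Igfbp2-treated Ncf1-/- replicates, in the same order of replicates as before. Vehicle-treated libraries lay above all others, and the Igfbp2-treated libraries overlapped WT. The means were 3.53 ± 0.532%, 4.73 ± 0.215% and 3.86 ± 0.327% (SD, n = 4). The fragment length that the deposited effective lengths imply was 166 to 174 bases in WT, 173 to 192 in vehicle-treated and 164 to 169.6 in Igfbp2-treated libraries, and 5 abundant structural RNAs (7SL, 7SK, RNase P and RNase MRP RNAs) held 10.5 to 14.2%, 8.82 to 13.0% and 13.2 to 19.9% of counts. The part of these 2 measures in the change of order was not tested.

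**Figure D1:**
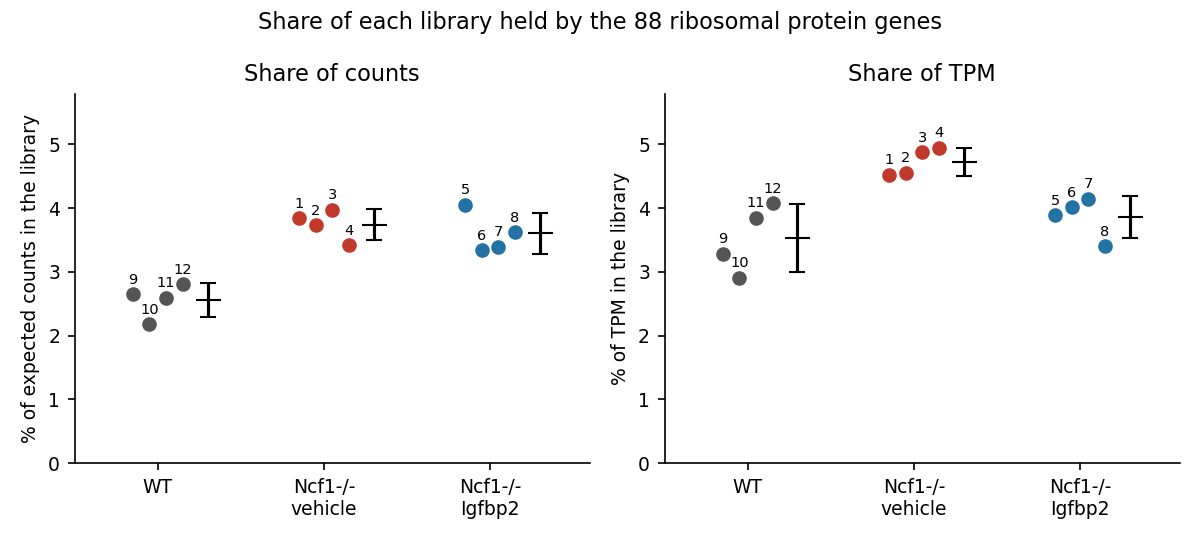
Share of each library's expected counts (left, %) and TPM (right, %) held by the 88 ribosomal protein genes, with 1 point per library numbered by replicate and bars giving mean ± SD of the 4 libraries of a group. By counts all 8 Ncf1-/- libraries (3.34 to 4.06%) lie above the 4 WT libraries (2.18 to 2.80%), and by TPM the Igfbp2-treated libraries (3.40 to 4.15%) overlap WT (2.91 to 4.08%).

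Within a group the members moved together from library to library. Replicate 10 was the lowest WT library for 76 of the 80 tested members and replicate 12 the highest for 55. Replicate 4 was the lowest vehicle-treated library for 67, and replicates 1 and 3 were the highest for 36 and 43. Among Igfbp2-treated libraries replicate 5 was the highest for 72 and replicate 7 the lowest for 61. The median member stood at −0.20, −0.51, −0.35 and −0.13 log2 units from its mean over all libraries in WT replicates 9 to 12, at 0.13, 0.0053, 0.14 and −0.09 in vehicle-treated replicates 1 to 4, and at 0.45, 0.15, 0.09 and 0.32 in Igfbp2-treated replicates 5 to 8. Other genes of up to 1000 bases moved in the same order in the Igfbp2-treated libraries, where their median was 0.26, 0.10, 0.02 and 0.13. Their order differed from that of the members in the other groups. It was −0.10, −0.22, −0.12 and −0.16 in WT replicates 9 to 12, so that replicate 12 was not the highest. In vehicle-treated replicates 1 to 4 it was 0.14, 0.05, 0.10 and −0.08. Because the members move together within a group, the counts of called members below are not counts of independent results.

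Most ribosomal protein genes were modestly higher in Ncf1-/- NSCs with vehicle than in WT NSCs. With edgeR's quasi-likelihood test, with Benjamini-Hochberg adjustment across the 15706 genes tested, 49 of the 80 tested members (61.3%) rose and 0 fell, where 28.9% of all genes were called higher and 28.2% lower. The median log2 fold change of the 80 members was 0.32, against 0.02 over all genes tested, and the range was −0.13 to 1.26. All 4 vehicle-treated libraries lay above all 4 WT libraries in CPM for 45 members, which 26.1% of all genes did, and in TPM for 58, which 22.2% did. For 77 members the vehicle-treated mean was the higher one. The comparison without WT replicate 12 called 52 members, with a median of 0.36, and that without WT replicate 11 called 40, with a median of 0.30. Leaving out replicate 10, the WT library with the lowest share, left 35 called members, with a median of 0.24.

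Genes of both subunits were called higher. Of 48 tested 60S genes 27 were called higher, with a median log2 fold change of 0.31, and of 32 tested 40S genes 22 were, with a median of 0.36. These counts and those of the smaller groups stand beside the 28.9% of all genes that were called higher. By the place of the proteins in the ribosome, 7 of 8 proteins of the peptide exit tunnel rose (median 0.38) and 3 of 7 proteins of the mRNA channel and decoding site (median 0.29). Of the 19 members whose human counterparts are mutated in Diamond-Blackfan anaemia, a congenital failure of red cell production, 7 rose (36.8%, near the share of all genes; median 0.29). Neither protein of the 5S particle was called in this fit. These are Rpl5 and Rpl11, the ribosomal proteins that bind Mdm2 when assembly is disturbed, and their calls depended on the setting, as given below.

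Rpsa (ENSMUSG00000032518, chr9:120127689-120132369), a 40S protein that is also known as the laminin receptor precursor, had the largest rise among members that are not paralogues. It stood at 765, 658, 721 and 760.1 CPM in WT replicates 9 to 12, 1290.2, 1198, 1264 and 1112 CPM in vehicle-treated Ncf1-/- replicates 1 to 4, and 1559, 1237, 1166 and 1316 CPM in Igfbp2-treated Ncf1-/- replicates 5 to 8. No Ncf1-/- library overlapped WT. The log2 fold change between vehicle-treated Ncf1-/- and WT was 0.74 with an SE of 0.109 (edgeR adjusted p = 7.33e-05).

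The P stalk of the 60S subunit recruits the elongation factors and is built on Rpl12 and Rplp0. The log2 fold change was 0.32 (edgeR adjusted p = 0.0386) for Rplp0, 0.30 (edgeR adjusted p = 0.0302) for Rplp2 and 0.62 (edgeR adjusted p = 0.00059) for Rpl12, so that these 3 rose, while Rplp1, at 0.20 (edgeR adjusted p = 0.207), did not pass. Rplp0 was no longer called in 7 of the 12 fits that left out 1 library (without replicate 1, 2, 3, 4, 6, 10 or 11; range of fitted values 0.24 to 0.36) and Rplp2 in 5 (without replicate 1, 3, 6, 10 or 11; 0.21 to 0.34), and by the study's test Rplp0, Rplp2 and Rpl12 had adjusted p = 0.0531, 0.0784 and 0.0782. Rpl12 stands for few of the reads of its sequence, as described with the pseudogene copies. Rplp0, often used as a reference gene in qPCR, stood at 994, 813, 876 and 989.7 CPM in WT replicates 9 to 12, 1242, 1113, 1189.7 and 1039 CPM in vehicle-treated Ncf1-/- replicates 1 to 4, and 1617, 1265, 1142 and 1359 CPM in Igfbp2-treated Ncf1-/- replicates 5 to 8. Its vehicle-treated and WT values did not overlap, but the lowest vehicle-treated value was close to the highest WT value.

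Rpl5 and Rpl11, which form the 5S particle, had log2 fold changes of 0.20 (edgeR adjusted p = 0.138) and 0.27 (edgeR adjusted p = 0.074). Neither passed in this fit. Both were called higher with library totals, at 0.38 (edgeR adjusted p = 0.0051) and 0.45 (edgeR adjusted p = 0.00378). Both were also called with pseudogene copies added by sequence, at 0.34 (edgeR adjusted p = 0.0261) and 0.33 (edgeR adjusted p = 0.0195). Rps6, whose phosphorylated form is a common readout of mTOR activity, rose, and its log2 fold change was 0.37 with an SE of 0.101 (edgeR adjusted p = 0.00702). Its values were 410.2, 349, 382 and 435 CPM in WT replicates 9 to 12, 530.3, 493, 539 and 472 CPM in vehicle-treated Ncf1-/- replicates 1 to 4, and 691, 567, 546 and 631 CPM in Igfbp2-treated Ncf1-/- replicates 5 to 8. Igfbp2-treated libraries lay above WT without overlap.

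The 4 members with the highest mean TPM were Rpl41, Rpl13a, Rpl23a and Rplp1, and their TPM are given as mean ± SD (n = 4). Rpl41, the shortest ribosomal protein, was at 1464 ± 177 in WT, 2389 ± 124 in vehicle-treated and 1952 ± 191 in Igfbp2-treated Ncf1-/- NSCs. Rpl13a, a 60S protein that takes part in translational silencing outside the ribosome, was at 1207 ± 197 in WT, 1406 ± 125 in vehicle-treated and 1266 ± 90.7 in Igfbp2-treated Ncf1-/- NSCs. Of these 2, Rpl41 rose by edgeR, with a log2 fold change of 0.63 (edgeR adjusted p = 0.00249), and Rpl13a, at 0.25 (edgeR adjusted p = 0.107), was not called. Rpl23a, which lies beside the exit tunnel and binds the signal recognition particle, was at 959 ± 251 in WT, 1494 ± 81.1 in vehicle-treated and 1236 ± 102 in Igfbp2-treated Ncf1-/- NSCs. Rplp1 was at 1101 ± 139.8 in WT, 1337 ± 52.7 in vehicle-treated and 1071 ± 123 in Igfbp2-treated Ncf1-/- NSCs. By edgeR, Rpl23a rose, with a log2 fold change of 0.58 (edgeR adjusted p = 0.00295).

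Among the 31 tested members that were not called, 3 had a fitted value under 0: Rpl27 at −0.13 (edgeR adjusted p = 0.385), Rps14 at −0.08 (edgeR adjusted p = 0.669) and Rpl22 at −0.02 (edgeR adjusted p = 0.901). The other 28 had log2 fold changes of 0.09 to 0.32. Rpl27 and Rpl22 turned to a fitted rise with TPM in place of TMM-scaled counts, and all 3 did with library totals. Standard errors were of like size across members, with a median of 0.118 against 0.141 over all genes.

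**Figure D2:**
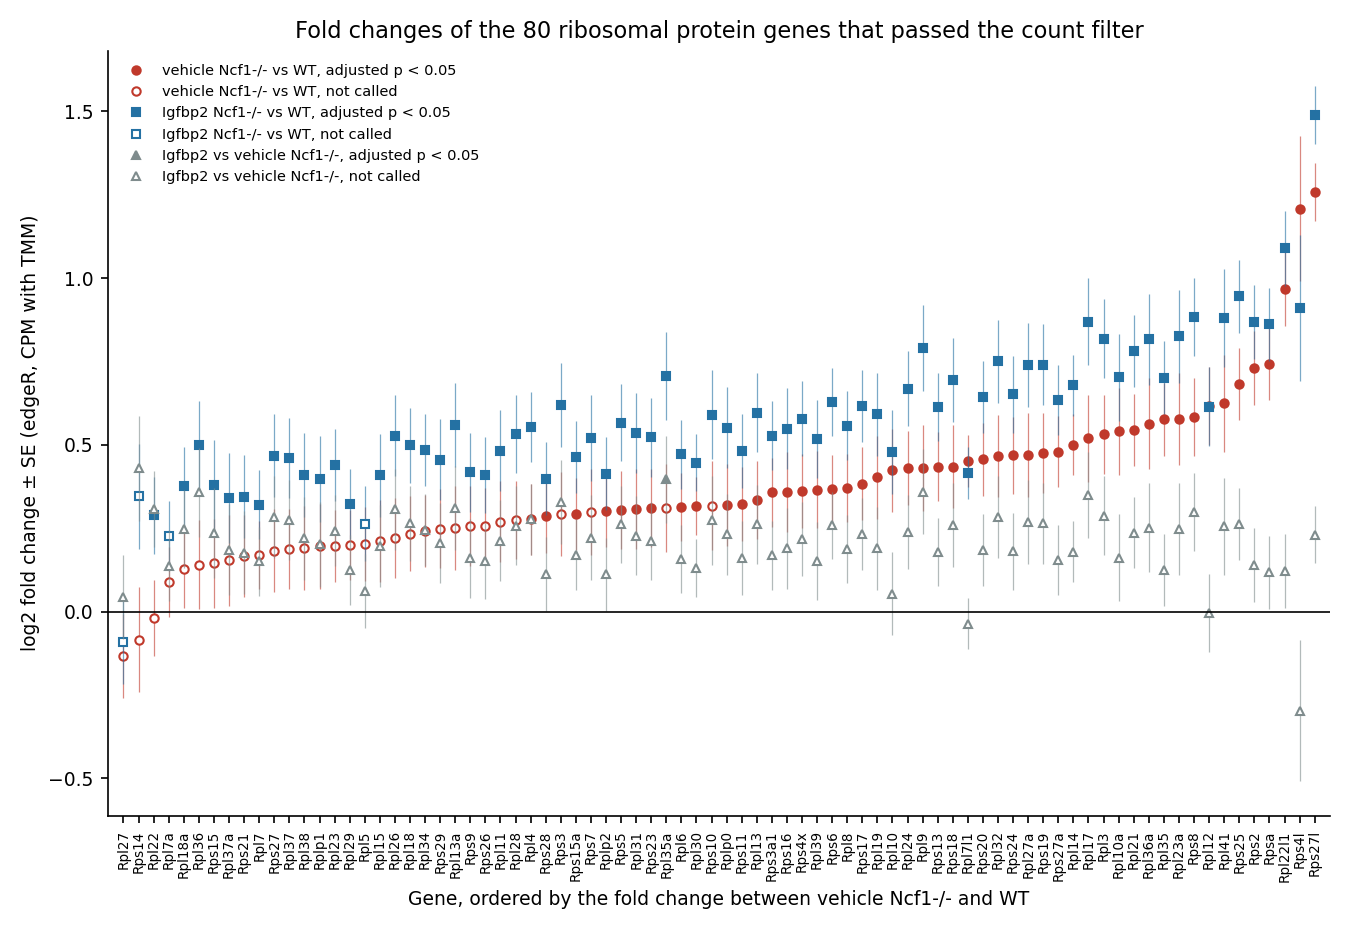
Fitted log2 fold change (y axis) with its standard error for each of the 80 tested ribosomal protein genes (x axis, ordered by the change between vehicle-treated Ncf1-/- and WT NSCs), as circles for vehicle-treated Ncf1-/- vs WT, squares for Igfbp2-treated Ncf1-/- vs WT and triangles for Igfbp2-treated vs vehicle-treated Ncf1-/-. Filled symbols passed the threshold: 49 circles, 76 squares and 1 triangle, and Rps27l, Rps4l and Rpl22l1 stand at the upper end. The triangles are on the TMM scale and lie lower with TPM.

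Ribosomal protein mRNAs are short, with a median transcript length of 732 bases among the members, and short transcripts as a class were also higher in Ncf1-/- NSCs. Of 1583 tested non-member genes of up to 1000 bases, 582 were called higher and 176 lower, with a median log2 fold change of 0.24, while the median of the 14043 longer non-member genes was −0.02. Among 175 short non-member genes at or above 79.4 CPM, near the lower end of the members' levels, 117 were called higher and 9 lower, with a median of 0.47. The 67 tested members of up to 1000 bases (40 called) and the 13 longer ones (9 called) had the same median of 0.32. Mitochondrial ribosomal protein genes, whose products translate the mitochondrial genome, gave 65 called higher and 0 lower of 78, with a median of 0.48. The part of transcript length in the members' rise was not tested beyond these counts.

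The rise over WT held under every way of scaling and testing that was run, with different numbers of calls. With library totals alone, 77 members were called higher (38.4% of all genes were) and the median was 0.50, but the median of all genes moved to 0.19. With limma on log2(TPM + 1), 55 were called higher (23.9% of all genes) with a median of 0.40. The test the study ran on TPM was a one-way analysis of variance with Tukey's post hoc test and Benjamini-Hochberg adjustment. With it, 37 of 85 were called higher (8.15% of all genes) with a median of 0.39. For this test, here and below, all genes are the 27880 with a TPM above 0 in any library, without the count filter. In each of the 3, 0 members were called lower, and relative to the median of all genes the members stood at 0.31, 0.36 and 0.39, against 0.30 with TMM factors.

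Paralogues of ribosomal proteins stood at the upper end of the members, and their ratios to the genes they resemble were tested separately. Of the 7 members that are named as like another member, 4 had enough counts, and all 4 rose. Rps27l (ENSMUSG00000036781, chr9:66946086-66949516), a stress-responsive paralogue of Rps27 that is a known p53 target, had the largest rise of all members. It stood at 48.5, 41.8, 41.5 and 40.03 CPM in WT replicates 9 to 12, 111, 97.00, 105 and 98.98 CPM in vehicle-treated Ncf1-/- replicates 1 to 4, and 128, 113, 112 and 129.9 CPM in Igfbp2-treated Ncf1-/- replicates 5 to 8. The lowest Ncf1-/- value was far above the highest WT value, and the log2 fold change between vehicle-treated Ncf1-/- and WT was 1.26 with an SE of 0.0866 (edgeR adjusted p = 1.79e-07). Its parent Rps27 had a log2 fold change of 0.18 (edgeR adjusted p = 0.224) and was not called.

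Rpl22l1 (ENSMUSG00000039221, chr3:28805436-28807424), a paralogue of the 60S protein Rpl22 whose expression Rpl22 is known to repress, stood at 41.1, 28.9, 38.5 and 33.6 CPM in WT replicates 9 to 12, 66.7, 64.4, 75.9 and 71.2 CPM in vehicle-treated Ncf1-/- replicates 1 to 4, and 77.4, 72.6, 67.3 and 85.5 CPM in Igfbp2-treated Ncf1-/- replicates 5 to 8. The Ncf1-/- and WT libraries did not overlap. The gene rose, and its log2 fold change was 0.97 with an SE of 0.112 (edgeR adjusted p = 1.02e-05), while Rpl22 was at −0.02 (edgeR adjusted p = 0.901). With TPM Rpl22 was itself called higher, at 0.56 with limma (adjusted p = 0.00522) and at 0.54 by the study's test (adjusted p = 0.0252).

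Rps4l (ENSMUSG00000063171, chr6:148354656-148355598), which GENCODE lists as a transcribed processed pseudogene related to the X-linked Rps4x, stood at 3.23, 3.78, 5.28 and 2.004 CPM in WT replicates 9 to 12, 9.497, 8.13, 8.52 and 7.499 CPM in vehicle-treated Ncf1-/- replicates 1 to 4, and 7.81, 6.19, 6.695 and 6.68 CPM in Igfbp2-treated Ncf1-/- replicates 5 to 8. These are low levels, and WT replicate 11 lay closest to the Ncf1-/- values. Its log2 fold change between vehicle-treated Ncf1-/- and WT was 1.21 with an SE of 0.217 (edgeR adjusted p = 0.000357), and Rps4x rose by 0.36 (edgeR adjusted p = 0.0133) but was not called by the study's test. Rpl7l1, which takes part in ribosome assembly, rose by 0.45 (edgeR adjusted p = 0.000247), while Rpl7, its parent, was at 0.17 (edgeR adjusted p = 0.175). Rpl3l, a muscle form of Rpl3, and Rpl10l and Rpl39l, known from the testis, had at most 1 count in any library.

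The ratio of a paralogue to its parent within a library does not depend on how libraries are scaled. Over the 4 pairs and 3 comparisons, 12 exact permutation tests of the log2 ratio were run (two-sided, 4 libraries against 4, smallest possible p = 0.0286) and adjusted by the Benjamini-Hochberg method. As a percentage of Rps27 counts, Rps27l counts were 21.2, 24.4, 19.7 and 16.2% in WT, 42.1, 42.1, 40.4 and 44.8% in vehicle-treated and 38.1, 41.1, 44.1 and 40.5% in Igfbp2-treated Ncf1-/- replicates, in order of replicate number. The Ncf1-/- groups overlapped each other and lay above every WT library. The difference in log2 ratio was 1.07 (exact permutation p = 0.0286, adjusted p = 0.049) between vehicle-treated Ncf1-/- and WT, 1.02 (exact permutation p = 0.0286, adjusted p = 0.049) between Igfbp2-treated Ncf1-/- and WT, and −0.05 (exact permutation p = 0.4, adjusted p = 0.436) between the Ncf1-/- groups.

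As a percentage of Rpl22 counts, Rpl22l1 counts were 25.5, 19.9, 23.8 and 15.9% in WT, 37.3, 40.01, 43.8 and 45.2% in vehicle-treated and 34.7, 37.04, 36.4 and 37.8% in Igfbp2-treated Ncf1-/- replicates. Both Ncf1-/- groups lay above WT, and the difference in log2 ratio was 0.99 (exact permutation p = 0.0286, adjusted p = 0.049) for vehicle-treated and 0.80 (exact permutation p = 0.0286, adjusted p = 0.049) for Igfbp2-treated Ncf1-/- against WT. Between the Ncf1-/- groups it was −0.18 (exact permutation p = 0.0571, adjusted p = 0.0857), which did not pass. Computed from TPM these differences from WT were 0.51 and 0.37. The Igfbp2-treated and WT libraries then overlapped, with replicate 5 at 42.6% and WT replicate 9 at 42.9%.

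As a percentage of Rpl7 counts, Rpl7l1 counts were 14.1, 16.4, 15.04 and 11.7% in WT, 17.02, 17.3, 17.6 and 16.96% in vehicle-treated and 14.7, 15.5, 17.6 and 13.2% in Igfbp2-treated Ncf1-/- replicates. The vehicle-treated libraries lay just above WT, with a difference of 0.28 (exact permutation p = 0.0286, adjusted p = 0.049), and the Igfbp2-treated libraries overlapped both other groups. As a percentage of Rps4x counts, Rps4l counts were 0.733, 1.01, 1.11 and 0.382% in WT, 1.61, 1.45, 1.41 and 1.300% in vehicle-treated and 1.02, 0.976, 1.102 and 0.955% in Igfbp2-treated Ncf1-/- replicates. Here the vehicle-treated libraries lay above all others, with a difference of 0.94 (exact permutation p = 0.0286, adjusted p = 0.049) from WT, and the Igfbp2-treated libraries lay below them, with a difference of −0.51 (exact permutation p = 0.0286, adjusted p = 0.049), and overlapped WT. The 7 differences that passed kept their direction with TPM in place of counts, but there their adjusted p was 0.0571 to 0.098 and none passed. By TPM only Rpl22l1 to Rpl22 in Igfbp2-treated Ncf1-/- against WT lost the smallest exact permutation p, at 0.0571. The others kept the exact permutation p of 0.0286, and only the adjustment moved their adjusted p from 0.049 to 0.0571. The adjusted p thus depended on how many tests reached the smallest p together. No ratio could have passed by itself, and the tests share libraries. All 7 differences also kept their direction when any 1 library was left out. With 3 libraries against 4 the smallest p is 0.0571, so that no test can pass there.

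**Figure D3:**
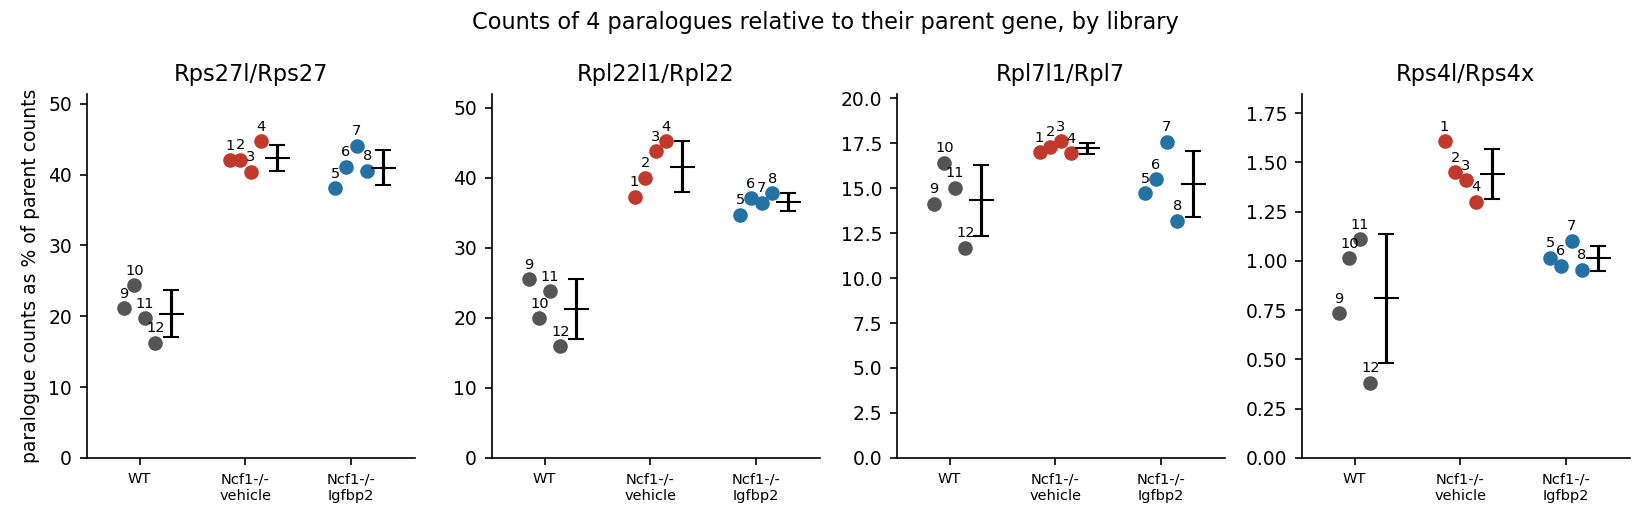
Expected counts of 4 paralogues as a percentage of the counts of their parent gene (y axis of each panel, starting at 0), with 1 point per library numbered by replicate and bars giving mean ± SD of the 4 libraries of a group. For Rps27l the Ncf1-/- libraries lie at 38.1 to 44.8% and the WT libraries at 16.2 to 24.4%, and for Rps4l the Igfbp2-treated libraries (0.955 to 1.10%) lie below the vehicle-treated ones (1.30 to 1.61%).

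Between Igfbp2-treated and vehicle-treated Ncf1-/- NSCs, 1 of the 80 tested members was called higher and 0 lower by edgeR, where 14.2% of all genes were called higher and 10.7% lower. The median log2 fold change was 0.22, against 0.04 over all genes, and 77 members had a value above 0, with a range of −0.30 to 0.43. For 14 members all 4 Igfbp2-treated libraries lay above all 4 vehicle-treated ones in CPM, which 19.3% of all genes did. Leaving out replicate 5, the Igfbp2-treated library with the highest levels, took the median from 0.22 to 0.11.

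The member called was Rpl35a (ENSMUSG00000060636, chr16:33056453-33060189), a 60S protein and a Diamond-Blackfan anaemia gene. Its values were 96.5, 76.3, 81.4 and 92.2 CPM in WT replicates 9 to 12, 119, 111, 103 and 95.4 CPM in vehicle-treated Ncf1-/- replicates 1 to 4, and 145, 121, 119.9 and 179.6 CPM in Igfbp2-treated Ncf1-/- replicates 5 to 8. The lowest Igfbp2-treated values lay just above the highest vehicle-treated value, and replicate 8 stood well above the others. The log2 fold change was 0.40 with an SE of 0.131 (edgeR adjusted p = 0.0429). It was no longer called in 10 of 12 fits that left out 1 library, among them the fit without replicate 8, at 0.23, nor with library totals (0.12) or in the fit to the 8 Ncf1-/- libraries with a block for the preparation (0.33; it was called in the fit to these libraries without the block), and its fitted value was −0.12 with TPM.

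Rps14 had the largest fitted value of the 80, at 0.43 (edgeR adjusted p = 0.062), and Rps4l the lowest, at −0.30 (edgeR adjusted p = 0.317). Neither passed, and Rps14 was at −0.08 with TPM. Rps4l was called lower with TPM, at −0.68 with limma (adjusted p = 0.0175) and at −0.67 by the study's test (adjusted p = 0.0402). By these 2 tests 39.2% and 7.48% of all genes were called lower. In a fit to the 8 Ncf1-/- libraries alone both passed, with edgeR adjusted p = 0.0429 for Rps14 and 0.0292 for Rps4l, and both also passed when the preparation was added to that fit as a block, with edgeR adjusted p = 0.0459 and 0.0302. Rps27l was at 0.23 (edgeR adjusted p = 0.0629) and Rpl22l1 at 0.12 (edgeR adjusted p = 0.443). Both turned to a fitted fall with library totals and with TPM.

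The direction of this comparison depended on the scaling. TMM factors were 1.08 to 1.14 in vehicle-treated and 0.892 to 0.976 in Igfbp2-treated libraries, so that dividing by totals alone moved the median of all genes from 0.04 to −0.23 and that of the members from 0.22 to −0.06, with 1 member called lower (33.5% of all genes were). With limma on log2(TPM + 1), 21 members were called lower (39.2% of all genes) and the medians of members and of all genes were both −0.30. In TPM, 68 members lay lower in all 4 Igfbp2-treated libraries than in all 4 vehicle-treated ones, which 39.5% of all genes did. With the study's test, 2 of 85 members were called lower (7.48% of all genes) and the median was −0.29, against −0.10 over all genes.

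Relative to the median of all genes, the members stood 0.18 higher with TMM factors and 0.18 higher with library totals. They stood 0.00037 higher with limma on TPM and 0.19 lower with the study's test on TPM. The medians of the members were alike with limma and with the study's test, at −0.296 and −0.293. The medians of all genes, −0.296 and −0.103, cover different sets, 15706 genes for limma and 27880 for the study's test. With DESeq2, 8 members were called higher (15.5% of all genes). In a fit to these 2 groups alone, 6 were called higher (19.5% of all genes) and 1 lower (18.3%). With the preparation as a block in that fit, 3 were called higher (19.0%) and 1 lower (17.0%), with a median of 0.16. These shares of members called lay below those of all genes.

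**Figure D4:**
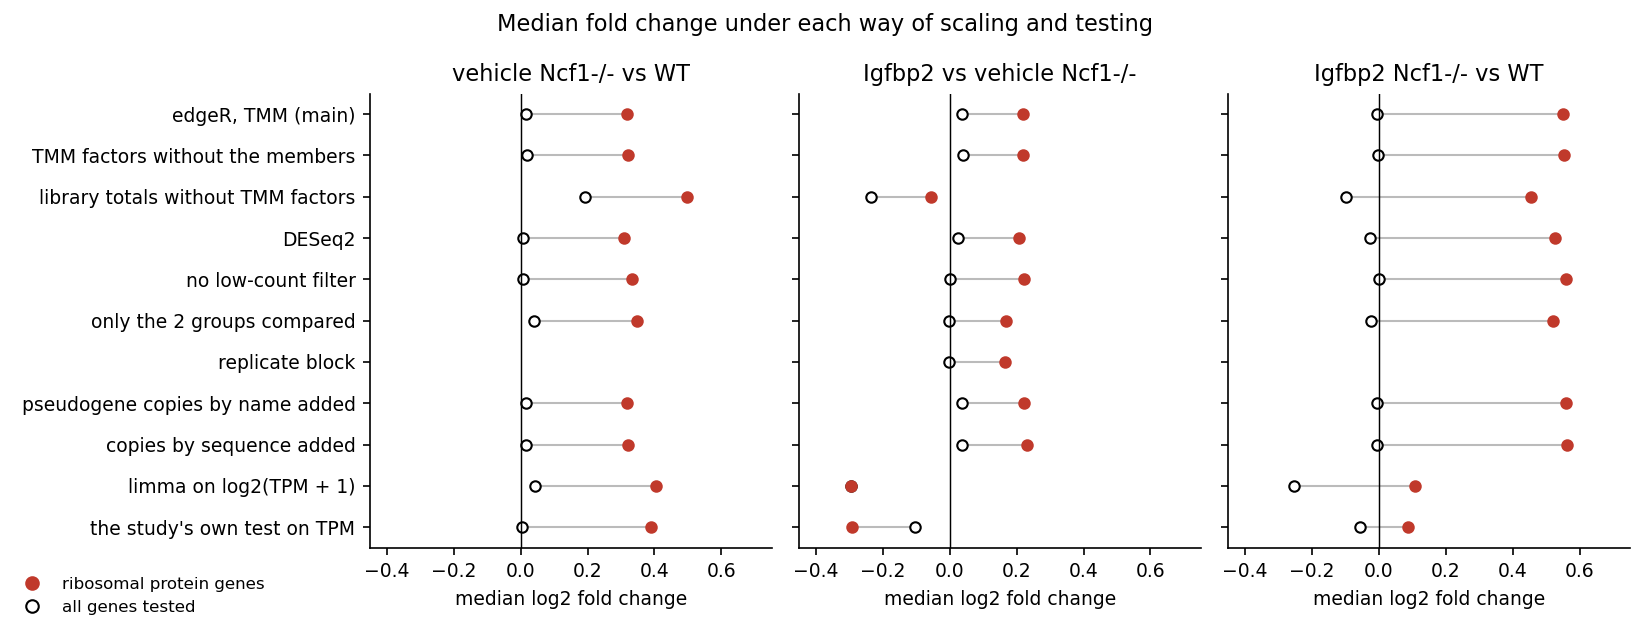
Median log2 fold change (x axis) of the tested ribosomal protein genes (filled points) and of all genes tested (open points) under each way of scaling and testing (y axis), with 1 panel per comparison. Members lie to the right of all genes in both comparisons with WT, and in the comparison of Igfbp2-treated with vehicle-treated Ncf1-/- NSCs the filled points run from 0.23 down to −0.30.

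Against WT, Igfbp2-treated Ncf1-/- NSCs had more called members than vehicle-treated ones. By edgeR 76 of 80 rose and 0 fell, where 31.6% of all genes were called higher and 30.8% lower, and the median log2 fold change was 0.55, against −0.01 over all genes. All 4 Igfbp2-treated libraries lay above all 4 WT libraries in CPM for 69 members, which 27.8% of all genes did, and in TPM for 7, which 8.75% did. Both comparisons share the WT libraries. The 49 members called in the first were all among the 76, and 27 were called here and not in the other, but the difference itself, which is the comparison of Igfbp2-treated with vehicle-treated NSCs, was called for 1 member.

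Rps27l had the largest value, 1.49 with an SE of 0.0871 (edgeR adjusted p = 4.88e-08), followed by Rpl22l1 at 1.09 with an SE of 0.112 (edgeR adjusted p = 3.84e-06). Rps25, a 40S protein that internal ribosome entry sites are known to need, came next at 0.95 with an SE of 0.11 (edgeR adjusted p = 9.85e-06). It stood at 212, 171, 210.1 and 215 CPM in WT replicates 9 to 12, 354, 312, 339.8 and 293 CPM in vehicle-treated Ncf1-/- replicates 1 to 4, and 439, 354, 344 and 421 CPM in Igfbp2-treated Ncf1-/- replicates 5 to 8. No Igfbp2-treated library overlapped WT, and WT replicate 10 was the lowest. Rps4l was at 0.91 (edgeR adjusted p = 0.00277), Rpsa at 0.86 (edgeR adjusted p = 2.11e-05) and Rps6 at 0.63 (edgeR adjusted p = 0.000146). With limma on log2(TPM + 1) Rps4l was at 0.44 and Rps6 at 0.19 and neither was called, and by the study's test Rps4l, Rps6 and Rpl22l1 were not called.

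By group, 45 of 48 tested 60S and 31 of 32 tested 40S genes rose, as did all 8 exit tunnel proteins, all 4 P stalk proteins, 6 of 7 proteins of the mRNA channel and 17 of 19 Diamond-Blackfan anaemia genes. These counts stand beside the 31.6% of all genes called higher. Rplp1 of the P stalk, at 0.40 (edgeR adjusted p = 0.0156), was not called without replicate 5 (0.26), 6 or 10 and was fitted below 0 with TPM. Rpl11 of the 5S particle rose, at 0.48 (edgeR adjusted p = 0.0038), but was at 0.032 with limma on log2(TPM + 1) and at 0.028 by the study's test and was called by neither. The 4 members not called were Rpl5 at 0.26 (edgeR adjusted p = 0.054), Rpl7a at 0.23 (edgeR adjusted p = 0.0773), Rps14 at 0.35 (edgeR adjusted p = 0.071) and Rpl27 at −0.09 (edgeR adjusted p = 0.551). Short non-member genes had a median of 0.34, and short non-member genes at or above 79.4 CPM a median of 0.68 with 137 of 175 called higher.

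With library totals 70 members were called higher (26.7% of all genes) and the median was 0.46. With limma on log2(TPM + 1) 12 were called higher (12.5% of all genes) and 1 lower (43.9%), and the median was 0.11, against −0.25 over all genes. With the study's own test 4 of 85 were called higher (3.46% of all genes) with a median of 0.09. Without WT replicate 12, 75 members were called by edgeR with a median of 0.54, and without WT replicate 10, 63 with a median of 0.42. Without WT replicate 11, 72 were called with a median of 0.54.

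Several members shared their whole coding sequence with processed pseudogenes that held many or most of the counts. A search of GENCODE M21 transcripts found 741 copies, with at least 90% identity over at least 80% of the coding sequence, for 75 of the 83 members that have a coding sequence there, and 40 of the copies had a mean of at least 10 counts. The share of counts listed under the copies was over 50% for 5 members, over 25% for 10, and under 2% for 54. For these 10 members a count for the gene alone is uncertain, and which locus the reads came from was not tested.

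Rps12, a 40S protein, was at 0 in all 12 libraries, while Rps12-ps3, with the same coding letters as printed above, stood at 363, 309.6, 348 and 389 CPM in WT replicates 9 to 12, 549, 491, 533 and 464 CPM in vehicle-treated Ncf1-/- replicates 1 to 4, and 619, 521, 517 and 636 CPM in Igfbp2-treated Ncf1-/- replicates 5 to 8. All Ncf1-/- libraries lay above all WT libraries. With copies added, Rps12 had log2 fold changes of 0.53 (edgeR adjusted p = 0.000709) for vehicle-treated and 0.70 (edgeR adjusted p = 7.35e-05) for Igfbp2-treated Ncf1-/- against WT.

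Rpl12 had 95.1% of its counts under copies, led by Gm10275, and with them its log2 fold change between vehicle-treated Ncf1-/- and WT was 0.80 (edgeR adjusted p = 7.73e-05). Rpl27 had 89.1%, led by Rpl27-ps3. Alone it was the lowest of all members in both comparisons with WT, and with copies added it was at 0.19 (edgeR adjusted p = 0.148) for vehicle-treated and at 0.42 (edgeR adjusted p = 0.00397) for Igfbp2-treated Ncf1-/- NSCs, so that its direction turned. Rpl5 had 86.6%, led by Gm15500, and with copies its changes were 0.34 (edgeR adjusted p = 0.0261) and 0.65 (edgeR adjusted p = 0.000429), both called, where neither was called for the gene alone. Each leading copy matched the whole coding sequence of its gene without a mismatch.

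Rpl10, an X-linked 60S protein at the peptidyl transferase centre, had 53.1% under copies and moved the other way. Alone it rose by 0.42 (edgeR adjusted p = 0.0111) between vehicle-treated Ncf1-/- and WT, and with Rpl10-ps3 and its other copies the change was 0.22 (edgeR adjusted p = 0.0744) and no longer called. Rpl27a, Rpl36a, Rpl35, Rps23 and Rpl31 had 44.1, 34.2, 34.01, 32.5 and 27.7% under copies. With copies added throughout, the median of the members was 0.32 in the first, 0.23 in the second and 0.56 in the third comparison, against 0.32, 0.22 and 0.55 without them.

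**Figure D5:**
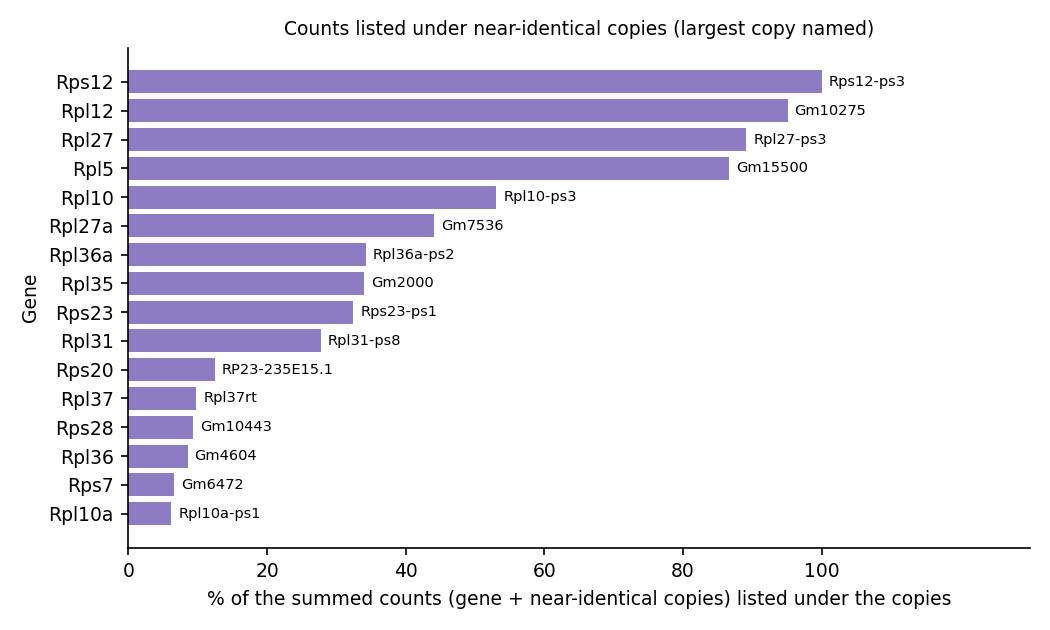
For 16 members, the share (x axis, %) of the summed expected counts of a gene and its near-identical copies that was listed under the copies, over all 12 libraries, with the copy that holds most counts named beside each bar. The share is 100% for Rps12, 95.1% for Rpl12, 89.1% for Rpl27 and 86.6% for Rpl5, and falls to 12.5% at Rps20 and 6.17% at Rpl10a.

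Of the ribosomal components whose symbols lie outside the rule, Fau (a fusion with Rps30), Rpl36al and Gnb2l1 (the 40S scaffold Rack1) were called higher in both comparisons with WT. Between vehicle-treated Ncf1-/- and WT their log2 fold changes were 0.33 (edgeR adjusted p = 0.0332), 0.67 (edgeR adjusted p = 9.82e-05) and 0.33 (edgeR adjusted p = 0.0295) in that order. Fau was no longer called without replicate 1, 3, 6, 10 or 11 (lowest value 0.24) and Gnb2l1 without replicate 1, 3 or 10 (lowest value 0.24), and by the study's test neither was called.

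Genes that act before and around the ribosome were less uniform, and more genes of Myc and mTOR control fell than rose. Values are log2 fold changes from edgeR with TMM factors, and the counts stand beside the 28.9% of all genes called higher and the 28.2% called lower. Of 18 other mRNAs known to carry a TOP motif, mostly translation factors, 9 were called higher and 2 lower in vehicle-treated Ncf1-/- against WT (median log2 fold change 0.26). Npm1, a nucleolar chaperone, had the largest rise of these, 0.68 (edgeR adjusted p = 6.82e-05), and Eef2, which moves the ribosome along the mRNA, the largest fall, −0.39 (edgeR adjusted p = 0.0187). Of 28 translation initiation factors 14 rose and 4 fell (median 0.21). Eif5, which triggers GTP hydrolysis at the start codon, rose by 0.86 (edgeR adjusted p = 2.58e-06), and Eif5b, which joins the subunits, fell by 0.62 (edgeR adjusted p = 0.000483). By the study's test Npm1, Eef2 and Eif5b were not called, and Eef2 was also not called with library totals (−0.21), with limma on TPM (−0.33), in the fit to these 2 groups alone (−0.36) or without replicate 1.

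Of 64 ribosome assembly factors 28 rose and 4 fell (median 0.21). Nhp2, a protein of the H/ACA particles that modify ribosomal RNA, was at 0.94 (edgeR adjusted p = 7.98e-06), and Nol6, a nucleolar protein of the small subunit processome, at −0.85 (edgeR adjusted p = 6.31e-06). Of 15 subunits and factors of RNA polymerase I, which transcribes ribosomal RNA, 4 rose (26.7%, near the share of all genes) and 2 fell (median 0.12), with Taf1d and Taf1c of its promoter factor SL1 at 0.68 (edgeR adjusted p = 0.0063) and −0.41 (edgeR adjusted p = 0.00858). Of 16 genes of Myc and mTOR control 2 rose and 10 fell (median −0.31). The kinase gene Mtor was at −0.82 (edgeR adjusted p = 2.08e-05), and Eif4ebp1, whose product mTOR phosphorylates to free the cap-binding factor, at 1.504 (edgeR adjusted p = 0.00659). Eif4ebp1 varied widely in WT, at 11.9 ± 10.8 CPM (SD, n = 4) against 33.3 ± 2.36 CPM in vehicle-treated NSCs, and its value was 2.29 without WT replicate 12. By the study's test Taf1d, Taf1c, Mtor and Eif4ebp1 were not called, and Taf1c was also not called with library totals (−0.23) or with limma on TPM (−0.25).

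After Igfbp2, against vehicle, 1 of the other TOP mRNAs was called higher and 0 lower, 2 and 1 of the initiation factors, 5 and 6 of the assembly factors, 1 and 2 of the 15 RNA polymerase I genes, and 4 and 3 of the 16 Myc and mTOR genes, where 14.2% of all genes were called higher and 10.7% lower. Eef2 rose by 0.47 (edgeR adjusted p = 0.0191), the nucleolar gene Rrp1b by 0.50 (edgeR adjusted p = 0.0079) and Eif2s3x, a subunit of the factor that brings the initiator tRNA, by 0.47 (edgeR adjusted p = 0.0215), and all 3 were fitted below 0 with TPM. With library totals none of the 3 was called, and Eef2 was also lost without replicate 1, 2, 3 or 8 (lowest value 0.42) and Eif2s3x without replicate 1, 2, 3, 5, 6 or 7 (lowest value 0.40). Larp1, the TOP-binding repressor, was at 0.55 (edgeR adjusted p = 0.0113), and Polr1a, the catalytic subunit of RNA polymerase I, at 0.64 (edgeR adjusted p = 0.00773). Neither was called with library totals (0.28 and 0.37), with limma on log2(TPM + 1) (0.014 and 0.14) or by the study's test. Lower after Igfbp2 were Taf1a at −0.74 (edgeR adjusted p = 0.0163), Eif5 at −0.46 (edgeR adjusted p = 0.00297), the S6 kinase gene Rps6kb2 at −0.46 (edgeR adjusted p = 0.0275) and the helicase gene Ddx51 at −0.40 (edgeR adjusted p = 0.0152). By the study's test Taf1a, Rps6kb2 and Ddx51 were not called, and Rps6kb2 was also not called without replicate 1, 3 or 8 (values from −0.53 to −0.37 over all fits that left out 1 library).

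Against WT, Igfbp2-treated Ncf1-/- NSCs had 13 other TOP mRNAs called higher and 0 lower (median 0.42), 15 and 3 initiation factors (median 0.35), 28 and 7 assembly factors (median 0.20), 4 and 3 RNA polymerase I genes (median 0.15), and 1 and 8 Myc and mTOR genes (median −0.14), where 31.6% of all genes were called higher and 30.8% lower. The 4 of 15 RNA polymerase I genes called higher (26.7%) are a smaller share than that of all genes. Among the largest changes, Eef1a1, which delivers aminoacyl-tRNA, was at 0.71 (edgeR adjusted p = 0.00113), Rrp1b at 1.30 (edgeR adjusted p = 1.15e-06), Eif2b2, a subunit of the exchange factor eIF2B, at 1.08 (edgeR adjusted p = 2.12e-05) and Eif4ebp1 at 2.40 (edgeR adjusted p = 0.000256). Polr1a was at 0.58 (edgeR adjusted p = 0.00305). With limma on log2(TPM + 1) Eef1a1 (0.28), Eif2b2 (0.37) and Polr1a (0.12) were not called, and by the study's test neither these nor Rrp1b (0.50) were. Lower were Mycn, a transcription factor of neural progenitors, at −1.07 (edgeR adjusted p = 0.000629), Sbds, which helps release eIF6 from the 60S subunit, at −0.87 (edgeR adjusted p = 6.74e-06), Taf1c at −0.82 (edgeR adjusted p = 5.68e-05) and Eif5b at −0.39 (edgeR adjusted p = 0.0102).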

How the data were processed

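The authors mapped reads of ribosomal-RNA-depleted total RNA with Bowtie2 and quantified genes with RSEM (GRCm38 in the submitters' processing notes; tool versions and annotation release are not given in the sources used here). Per the file headers each library file holds an RSEM expected count and a TPM per gene. The expected counts were deposited without normalization, and the TPM values were scaled by RSEM to the same total in every library. A merged table deposited by the authors holds score values, TPM multiplied by the number of transcripts listed for a gene, of which only the gene symbols beside them were used, and 0 of its columns belonged to samples outside the 12.

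Expected counts were rounded, genes were filtered with filterByExpr over the 3 groups, and a quasi-likelihood model with TMM factors was fitted to the 12 libraries with edgeR 4.0.16 in R 4.3.3. Tests were two-sided, with Benjamini-Hochberg adjustment over all 15706 genes and a threshold of 0.05. CPM were computed with TMM factors. Alternatives were library totals, TMM factors computed without the members, DESeq2 1.42.0, no filter on low counts, only the 2 groups compared, limma 3.58.1 on log2(TPM + 1), the study's own test on TPM, pseudogene copies added by name or by sequence, a replicate block and leaving out each library. The script was tested on simulated data.

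Copies were found with BLAST+ 2.17.0 in GENCODE M21, with at least 90% identity over 80% of the coding sequence and 50% of the copy's transcript. Adding copies by sequence was chosen after seeing the data. The members and lists were chosen with earlier results of these data known.

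By rule, named members are the 4 called members that rose most and the 4 that fell most in each comparison, the 4 with the highest TPM, the 5S particle, the P stalk, the paralogues with their parents, Rps6 and the ribosomal proteins outside the symbol rule, and of each other list the called gene with the largest change in each direction. One gene outside the symbol rule is not reported here. Other members named were chosen after their values were seen: those not called, and those with many counts under copies. The 4 libraries of a group are cultures of separate pups by the study's methods, which also pair Ncf1-/- cultures by preparation. The sample titles name no preparation, and replicates 1 and 5, 2 and 6, 3 and 7, and 4 and 8 were taken as pairs. The replicate block used these pairs, whose Y-linked sums differed as given above. Deviations from the group means had correlations of −0.14 to 0.14 over genes within these pairs, against −0.41 to 0.44 for the 12 other pairs.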

Additional observations from a re-analysis of the deposited data

Results flagged for a closer look

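In 5 of 168 groups of 4 libraries examined, 1 library lay so far from the other 3 that its gap, as a share of the range of the group, passed the critical value of Dixon's test, which chance does in about 1 of 20 groups. Among ribosomal protein genes this was Rps25 in WT replicate 10, at 171 CPM against 210.1 to 215 CPM in the other WT libraries, and the gap was 0.882 of the range. The other 4 were genes around the ribosome in Igfbp2-treated Ncf1-/- libraries. Eif2s3x was at 366 CPM in replicate 5 and at 322 to 328 CPM in the others. In replicate 7, Eif5 was at 276 CPM against 253 to 256 CPM, Mycn at 3.87 CPM against 2.70 to 2.85 CPM, and Taf1a at 4.78 CPM against 2.82 to 3.05 CPM. Eif5, Mycn and Taf1a have their outlying value in the library that was the lowest of its group for 61 of 80 ribosomal protein genes.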

How the results depend on the processing

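The number of members called changed with the setting in all 3 comparisons, and the cause was not tested. Between vehicle-treated Ncf1-/- and WT, library totals gave 77 called members and a median log2 fold change of 0.50, and leaving out 1 library gave 35 to 53 members and medians of 0.24 to 0.36. Between Igfbp2-treated and vehicle-treated NSCs the count was 8 with DESeq2, 7 with only these 2 groups, which added Rps14 and Rps4l, and 4 (median 0.16) with the replicate block for preparation, also fitted to only these 2 groups. Against that fit without the block, the block dropped Rpl35a (0.33) and changed no other call of a named gene. The count was 1 with library totals (median −0.057), 21 with limma on log2(TPM + 1) (median −0.30) and 2 with the study's own test (median −0.29), all lower. Leaving out 1 library gave 0 to 3 members (medians 0.11 to 0.25), with 0 called without each of replicates 1 to 6, 8 and 10. Between Igfbp2-treated Ncf1-/- and WT, limma gave 13 (median 0.11) and the study's test 4 (median 0.087), and leaving out 1 library 63 to 77 (medians 0.42 to 0.58).

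With TPM in place of counts, 7 paralogue ratios no longer passed. Only Rpl22l1 to Rpl22 in Igfbp2-treated Ncf1-/- against WT also lost the smallest exact permutation p, and the others failed through the adjustment alone. For Rps27l to Rps27 the differences were 1.03 for vehicle-treated and 1.02 for Igfbp2-treated Ncf1-/- against WT, for Rpl22l1 to Rpl22 they were 0.51 and 0.37, for Rpl7l1 to Rpl7 0.27, and for Rps4l to Rps4x 0.94 against WT and −0.51 between treatments. Leaving out 1 library gave 0.97 to 1.16 and 0.92 to 1.11 for Rps27l, 0.85 to 1.08 and 0.67 to 0.90 for Rpl22l1, 0.18 to 0.35 for Rpl7l1, and 0.62 to 1.13 and −0.56 to −0.45 for Rps4l.

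Fitted directions turned as follows. For vehicle-treated Ncf1-/- against WT, Rpl22 was at 0.16 with library totals, 0.56 with limma, 0.54 with the study's test, 0.010 with only 2 groups, and −0.11 to 0.072 when 1 library was left out, above 0 without replicate 2, 8 or 12. Rpl27 was at 0.051, 0.012 and 0.019 in the first 3 of these and at 0.19 with copies added by name or by sequence, and Rps14 at 0.10 with totals and at −0.18 to 0.0031 when 1 library was left out, above 0 without replicate 9. For Igfbp2 against vehicle, limma and the study's test gave −0.12 and −0.12 for Rpl35a, −0.084 and −0.079 for Rps14, −0.29 and −0.29 for Rps27l, −0.39 and −0.39 for Rpl22l1, −0.00418 and −0.00431 for Eef2, −0.42 and −0.38 for Rrp1b, and −0.014 and −0.011 for Eif2s3x, and totals −0.042 for Rps27l and −0.15 for Rpl22l1. For Igfbp2-treated Ncf1-/- against WT they gave −0.039 and −0.049 for Rpl5, −0.038 and −0.039 for Rplp1, −0.093 and −0.10 for Rps14, and −0.21 and −0.21 for Rpl7a, and Rpl27 was at 0.42 and 0.43 with copies by sequence and by name and at −0.22 to 0.020 when 1 library was left out, above 0 without replicate 9. Of the fits of named genes that left out no library, 544 kept direction and side of the threshold, 47 lost the call, 17 gained it and 36 turned.

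Adding copies was not planned for copies found by sequence. The members share their movement within libraries, and other short transcripts moved in the same order only in the Igfbp2-treated group. The Ncf1-/- groups differ in Y-linked expression, so that treatment and this difference cannot be told apart. With 4 libraries a group no exact permutation test can give a p under 0.0286, and intervals from counting alone were not used.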
